A study of Mus musculus with 10 samples.

Results

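The genes described here are the collagens of mouse liver, the family of chains that fold into the fibres, networks and filaments of the extracellular matrix. The family was picked with earlier results of these data known. Its members were then set by name, as the protein-coding genes whose symbol reads Col, a number, a and a number. The rule gave 44 of the 56748 genes in the deposited table. RNA-seq reads per gene had been counted in 10 liver libraries, 5 from mice with the genotype ACSS2-flox, called flox here, and 5 from mice with the genotype ACSS2-HKO, called HKO. The labels describe HKO as a knockout of Acss2 restricted to liver cells, made to study steatohepatitis, and Acss2 encodes an enzyme that turns acetate into acetyl-CoA. Every mouse, controls included, had been fed a diet high in fat and fructose for 4 months. The sources used here give neither the Cre driver nor the mice's sex, age or strain, and they name no group on another diet. The comparison of HKO with flox asks whether collagen transcripts in these fed livers differed with the genotype.

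Collagen chains wind around each other in groups to form a triple helix, and the chains that pair with each other define the collagen types. Types I, III and V build fibrils, type IV forms the sheet-like network of basement membranes, type VI forms beaded microfibrils, and types XV and XVIII are basement-membrane proteins whose ends can be cut off as antiangiogenic fragments such as endostatin. In liver, stellate cells and portal fibroblasts make most of the fibrillar collagen, and fibrosis is the build-up of these fibrils. Hepatocytes are a known source of type XVIII.

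Library totals ran from 15413648 to 19275358 counts, so 3 counts were worth 0.151 to 0.198 CPM. CPM here is a gene's count scaled to a common library total with TMM factors, and values are given as mean ± SD with n = 5 unless stated otherwise. For Acss2 itself the flox libraries read 73.2, 86.9, 56.5, 129 and 58.6 CPM and the HKO libraries 52.8, 59.0, 43.8, 40.2 and 51.4 CPM, in replicate order as in all such series below. The groups overlapped through HKO replicate 2, and the log2 fold change of HKO over flox was -0.71 ± 0.21 (SE, edgeR adjusted p = 0.0858). It passed the threshold of 0.05 in DESeq2 (adjusted p = 0.0346), in edgeR with library totals alone (0.0447) or with no filter on low counts (0.0433), and without flox replicate 3 (0.0460). Gss, which overlaps Acss2, held 92.4% as many counts. Among all 14068 genes tested, 561 passed the edgeR threshold, 129 higher and 432 lower in HKO. Of 10 macrophage markers, all 10 fell in HKO, beside 3.99% of all genes called in either direction. Without flox replicate 5, 8 of them fell, beside 2.54% of all genes. Mpeg1 was at 117 ± 35.6 CPM in flox and 36.6 ± 10.3 CPM in HKO (edgeR adjusted p = 0.00334).

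Of the 44 collagens, 23 had enough counts to be tested, and 0 of them passed the edgeR quasi-likelihood test of HKO against flox, beside 3.99% of all genes tested. DESeq2 also called 0, beside 7.26% of all genes. Without adjustment, 6 of 23 (26.1%) had an edgeR p under 0.05, namely Col1a1, Col3a1, Col14a1, Col4a1, Col1a2 and Col16a1, beside 16.9% of all genes. The unadjusted DESeq2 p was under 0.05 for 4 of 23, beside 17.7% of all genes. The HKO libraries lay wholly to one side of the flox libraries in 0 of 23 collagens, beside 5.37% of all genes. The fold change was below 0 in 17 of 23 (73.9%), beside 49% of all genes, and its median was -0.45 on the log2 scale, beside 0.01 over all genes.

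A control library, flox replicate 5, stood high across much of the family. Reading the collagens with and without it was set with earlier results of these data known. The shares below therefore describe that library and do not test it. Flox replicate 5 had the highest level of all 10 libraries in 14 of the 23 tested collagens (60.9%), beside 13.7% of all genes tested. Its level over the median of the other flox libraries was 1.74 for the median collagen and 0.995 for the median gene. Without flox replicate 5 the median log2 fold change of the collagens was -0.19, beside 0.01 over all genes. In that fit 17 of 23 were below 0, with Col6a1 turning above 0 (0.15) and Col13a1 below it (-0.15). None passed the edgeR test (0 of 23), beside 2.54% of all genes. The unadjusted edgeR p was under 0.05 for 2 (Col1a1 and Col3a1), beside 13.7% of all genes. In bulk liver, fewer collagen-making cells and less collagen RNA per cell cannot be told apart.

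**Figure D1:**
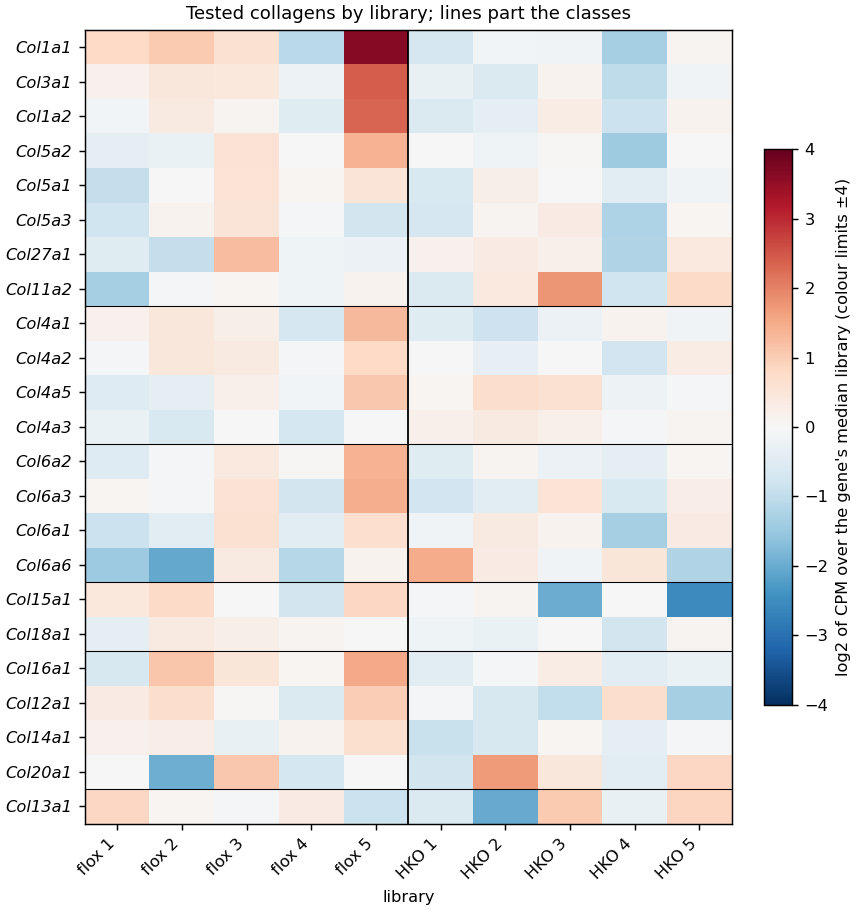
Level of each tested collagen in each library, as the log2 of its CPM over that gene's median across the 10 libraries (red above the median, blue below; rows grouped by class, columns by group). Flox replicate 5 is the highest library in 14 of 23 rows, while Col5a3, Col27a1 and Col18a1 are not highest there.

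The fibrillar class held 11 members, of which 8 were tested and 0 passed. Col1a1 and Col1a2 encode the chains of type I collagen, the main fibril of scar and capsule, and Col3a1 encodes the type III chain that is laid down with it. All 3 were lower on average in HKO, with a spread in flox that came mainly from replicate 5. The RefSeq promoter windows of Col1a2 and Col3a1, 250 bases before to 50 after the start site in GRCm38.p6, are shown because these genes had the same outlying library. Capitals mark the letters CCAAT or their reverse complement ATTGG. The first lies at chr6:4505368-4505667 on the plus strand and the second at chr1:45311288-45311587 on the plus strand. Gene positions given with gene identifiers below are those of the deposited table, which are on other coordinates than the windows.
Col1a2: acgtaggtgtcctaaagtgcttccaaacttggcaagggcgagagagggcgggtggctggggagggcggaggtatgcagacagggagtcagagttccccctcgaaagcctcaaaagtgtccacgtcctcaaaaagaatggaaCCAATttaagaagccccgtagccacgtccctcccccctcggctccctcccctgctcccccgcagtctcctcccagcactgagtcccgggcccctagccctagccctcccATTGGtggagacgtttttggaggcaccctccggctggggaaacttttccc
Col3a1: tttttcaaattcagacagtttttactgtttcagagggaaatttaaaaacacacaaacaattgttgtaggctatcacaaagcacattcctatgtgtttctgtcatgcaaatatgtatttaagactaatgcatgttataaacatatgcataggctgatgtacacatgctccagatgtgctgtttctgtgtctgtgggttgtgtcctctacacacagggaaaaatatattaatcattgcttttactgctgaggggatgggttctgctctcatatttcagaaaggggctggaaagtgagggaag
The Col1a2 window held 2 such matches and the Col3a1 window 0, so these letters were not shared by the pair in these windows. The Col3a1 window instead held TATAAA, read on either strand, which stood in 3 of the 18 tested collagens with a window and in 13.6% of all 32851 windows. CCAAT on either strand stood in 7 of those 18, beside 37.4% of all windows, and GGGCGG on either strand in 12 of 18, beside 35.7%. A collagen was counted if any of its windows held the letters, while the shares of all windows are per window. Per window, tested or not, 5 of 38 collagen windows held TATAAA, 13 held CCAAT and 23 held GGGCGG.

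Col1a1 (ENSMUSG00000001506, chromosome 11, 94827050 to 94843868, plus strand) read 5.02, 5.97, 4.37, 1.38 and 35.9 CPM in flox. In HKO it read 1.81, 2.65, 2.64, 1.16 and 3.14 CPM. Flox replicate 5 stood at 7.64 times the median of the other flox libraries, 3 of the other flox libraries lay above every HKO library, and flox replicate 4 lay below 4 of the 5. The means were 10.5 ± 14.3 CPM in flox and 2.28 ± 0.788 CPM in HKO, with a log2 fold change of -2.20 ± 0.69 (SE; 95% CI -3.68 to -0.73; edgeR adjusted p = 0.0970). Without flox replicate 5 the flox mean was 4.18 ± 1.98 CPM (n = 4) and the log2 fold change -0.86 ± 0.39 (edgeR adjusted p = 0.356). Without flox replicate 4, the lowest flox library, it was -2.49 and Col1a1 alone of the collagens passed the threshold (edgeR adjusted p = 0.0344), beside 3.83% of all genes. Over all alternatives the adjusted p of Col1a1 ran from 0.0104 to 0.356, the lower bound being with no filter on low counts.

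Col3a1 (ENSMUSG00000026043, chromosome 1, 45350698 to 45388866, plus strand) read 13.0, 15.8, 15.6, 10.03 and 61.9 CPM in flox and 9.40, 7.82, 12.8, 5.78 and 10.5 CPM in HKO. Flox replicates 1, 2, 3 and 5 were above every HKO library, and flox replicate 4 lay below 2 of them. The log2 fold change was -1.33 ± 0.44 (SE; 95% CI -2.27 to -0.39; edgeR adjusted p = 0.120), and -0.55 ± 0.23 without flox replicate 5 (edgeR adjusted p = 0.293). With no filter on low counts Col3a1 passed (edgeR adjusted p = 0.0203), as did Col1a1, beside 2.93% of all genes.

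Col1a2 (ENSMUSG00000029661, chromosome 6, 4504814 to 4541544, plus strand) read 5.996, 8.34, 7.04, 4.64 and 32.6 CPM in flox and 4.34, 5.04, 7.995, 3.60 and 7.16 CPM in HKO. Apart from flox replicate 5 the groups covered almost the same range. The log2 fold change was -1.06 ± 0.48 (SE; 95% CI -2.09 to -0.04; edgeR adjusted p = 0.276) and came to -0.20 ± 0.27 without flox replicate 5 (95% CI -0.78 to 0.37; edgeR adjusted p = 0.827).

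**Figure D2:**
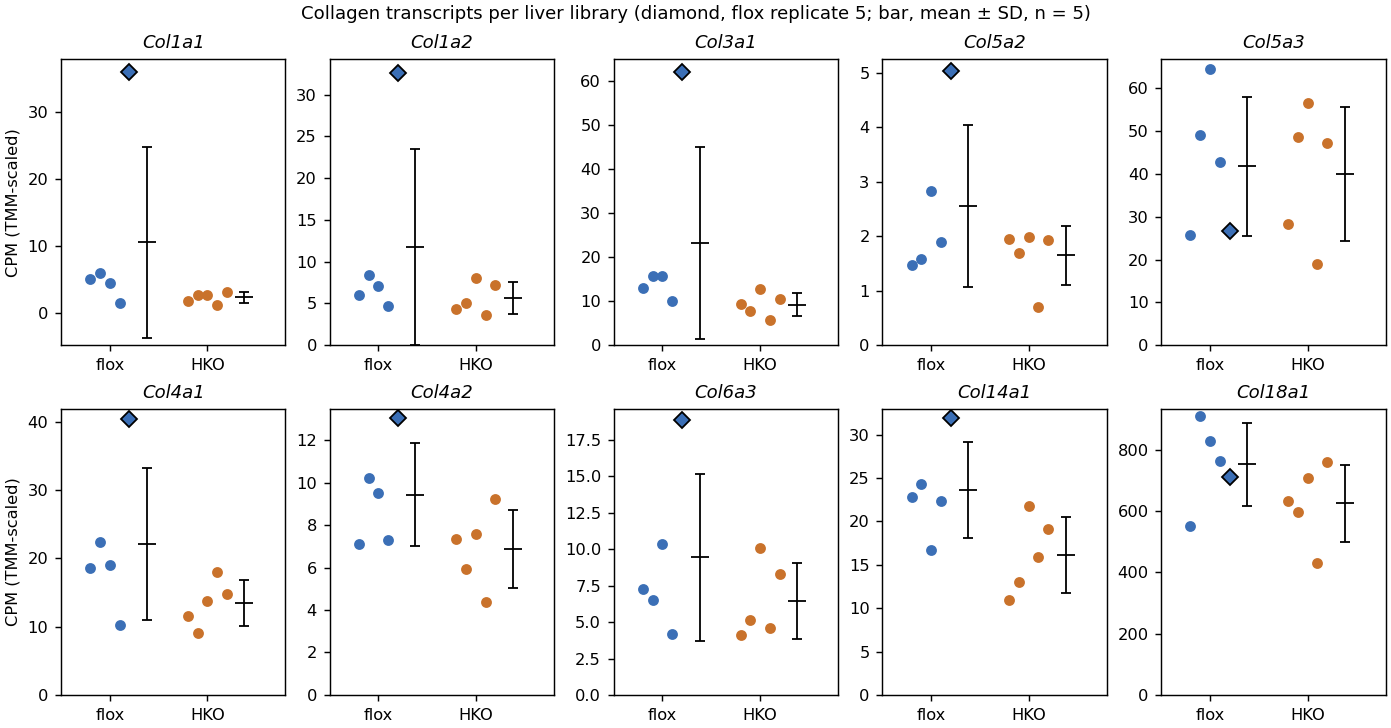
CPM of 10 collagens in every library (flox blue, HKO orange; the diamond is flox replicate 5; bars, mean ± SD, n = 5; each panel has its own linear axis). In Col1a1, Col1a2 and Col3a1 the diamond stands at 4.33 to 7.64 times the median of the other flox libraries, while in Col5a3 and Col18a1 it lies below it.

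Since type I procollagen is built from both Col1a1 and Col1a2, the ratio of their counts within a library was also followed, which does not depend on scaling between libraries. Col1a1 had 0.837, 0.715, 0.620, 0.296 and 1.10 counts per Col1a2 count in flox. In HKO the ratio was 0.418, 0.525, 0.331, 0.321 and 0.438. The ratio was highest in flox replicate 5 and lowest in flox replicate 4, and the groups overlapped (0.713 ± 0.294 in flox, 0.407 ± 0.084 in HKO). Col1a2 counts per Col3a1 count kept a narrow range in flox, from 0.451 to 0.529 with flox replicate 5 included, and ran from 0.462 to 0.684 in HKO. Col1a1 stood apart from both in flox replicate 5, with 0.580 counts per Col3a1 count there and 0.137 to 0.387 in the other 9 libraries. Against the basement membrane chain Col4a1 it had 0.888 counts per count in that library and 0.064 to 0.290 in the other 9.

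The other fibrillar chains were spread differently. Col5a2, which regulates the width of type I fibrils with Col5a1, read 1.47, 1.58, 2.84, 1.89 and 5.04 CPM in flox and 1.94, 1.70, 1.98, 0.707 and 1.93 CPM in HKO, with flox replicate 5 highest. Its log2 fold change was -0.64 ± 0.39 (SE, edgeR adjusted p = 0.447), or -0.23 without that library. Col5a1 ran from 2.998 to 8.41 CPM in flox and from 3.82 to 6.87 CPM in HKO, with a log2 fold change of -0.28 ± 0.27 (SE, edgeR adjusted p = 0.666).

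Col5a3, the remaining type V chain, was the most abundant fibrillar collagen per length, at 6.13 CPM per kilobase in flox and 5.86 in HKO. It read 25.7, 49.0, 64.4, 42.7 and 26.7 CPM in flox and 28.3, 48.5, 56.4, 19.0 and 47.1 CPM in HKO. Flox replicate 5 was among the lowest libraries, at 0.583 times the median of the other flox libraries, and the groups overlapped almost fully (log2 fold change -0.06 ± 0.30, 95% CI -0.72 to 0.59, edgeR adjusted p = 0.950). Col3a1 had 2.31 counts per Col5a3 count in flox replicate 5 and 0.161 to 0.505 in the other 9 libraries, so the fibrillar genes did not move as a block in that library. Col27a1, a fibrillar collagen of cartilage, read 19.3, 13.9, 63.1, 24.2 and 22.8 CPM in flox and 30.1, 34.1, 30.9, 11.8 and 35.3 CPM in HKO. Flox replicate 3 was far above the rest and HKO replicate 4 below them, and the log2 fold change was -0.01 ± 0.37 (SE; 95% CI -0.81 to 0.79; edgeR adjusted p = 0.991). Col11a2, the last tested fibrillar chain, ran from 0.306 to 0.856 CPM in flox and from 0.450 to 2.64 CPM in HKO (log2 fold change 0.79 ± 0.48, edgeR adjusted p = 0.442). Across the 8 tested fibrillar genes, 7 had a fold change below 0, with a median of -0.46 on the log2 scale and -0.19 without flox replicate 5.

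The basement membrane class held the 6 type IV chains, of which 4 were tested and 0 passed. Col4a1 and Col4a2 encode the chains of the common type IV network and lie head to head. Their RefSeq windows on chromosome 8 of GRCm38.p6 are shown because they overlap: the Col4a1 window is chr8:11312777-11313076 on the minus strand and the Col4a2 window chr8:11312555-11312854 on the plus strand. Capitals mark the 78 bases that both windows contain, each printed on its own gene's strand.
Col4a1: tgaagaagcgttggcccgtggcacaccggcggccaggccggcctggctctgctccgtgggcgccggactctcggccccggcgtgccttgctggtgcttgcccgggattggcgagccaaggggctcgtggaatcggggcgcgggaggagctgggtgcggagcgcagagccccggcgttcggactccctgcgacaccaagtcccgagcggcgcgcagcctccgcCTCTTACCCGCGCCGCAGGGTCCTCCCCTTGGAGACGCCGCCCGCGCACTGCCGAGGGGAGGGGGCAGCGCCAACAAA
Col4a2: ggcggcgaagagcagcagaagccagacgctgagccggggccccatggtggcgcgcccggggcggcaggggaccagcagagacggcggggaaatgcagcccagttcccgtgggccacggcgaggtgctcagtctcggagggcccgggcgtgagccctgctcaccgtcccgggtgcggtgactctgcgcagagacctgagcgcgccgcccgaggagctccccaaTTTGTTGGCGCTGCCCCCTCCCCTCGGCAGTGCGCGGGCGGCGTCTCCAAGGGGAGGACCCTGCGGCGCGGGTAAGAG
The start sites stand 21 bases apart on opposite strands, and each window held 1 match to CCAAT on either strand.

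Col4a1 (ENSMUSG00000031502, chromosome 8, 11248423 to 11362826, minus strand) read 18.5, 22.5, 19.1, 10.3 and 40.4 CPM in flox and 11.6, 9.14, 13.8, 17.99 and 14.8 CPM in HKO. Flox replicate 5 was the highest library and flox replicate 4 lay below all but HKO replicate 2. The means were 22.2 ± 11.1 CPM in flox and 13.5 ± 3.34 CPM in HKO, with a log2 fold change of -0.72 ± 0.29 (SE; 95% CI -1.35 to -0.09; edgeR adjusted p = 0.218). Leaving out flox replicate 5 gave -0.38 ± 0.24 (edgeR adjusted p = 0.544). Col4a2 (ENSMUSG00000031503, chromosome 8, 11362805 to 11499287, plus strand) read 7.10, 10.2, 9.50, 7.28 and 13.0 CPM in flox and 7.32, 5.92, 7.60, 4.37 and 9.20 CPM in HKO, again with flox replicate 5 highest. Its log2 fold change was -0.45 ± 0.23 (SE; 95% CI -0.95 to 0.04; edgeR adjusted p = 0.347).

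The pair did not keep a fixed ratio: Col4a1 had 1.42 to 3.10 counts per Col4a2 count in flox and 1.54 to 4.12 in HKO, the highest in HKO replicate 4. Their table entries overlap at the start, and whether the counting used strand is not stated in those sources. Col4a3 and Col4a5, chains of the kidney and lung type IV network, had low levels. Col4a3 ran from 0.630 to 1.04 CPM in flox and from 0.964 to 1.32 CPM in HKO, with a log2 fold change of 0.44 ± 0.28 (SE; 95% CI -0.16 to 1.05; edgeR adjusted p = 0.471), and an overlapping gene held 98.2% as many counts. Col4a5 ran from 0.734 to 2.22 CPM in flox, with flox replicate 5 highest, and from 0.900 to 1.70 CPM in HKO (log2 fold change 0.07 ± 0.36, edgeR adjusted p = 0.952).

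The microfibril class held the 6 type VI chains, with 4 tested and 0 passing. Col6a1, Col6a2 and Col6a3 encode the chains of the common beaded filament. Col6a1 read 3.18, 4.32, 8.84, 4.30 and 9.22 CPM in flox and 5.25, 7.44, 6.34, 2.31 and 7.28 CPM in HKO, and the groups overlapped over nearly their whole range (log2 fold change -0.06 ± 0.35, 95% CI -0.82 to 0.69, edgeR adjusted p = 0.957). Without flox replicate 5 its sign turned, to 0.15 ± 0.36. Col6a2 ran from 1.71 to 6.55 CPM in flox and from 1.75 to 2.65 CPM in HKO, with a log2 fold change of -0.58 ± 0.34 (SE, edgeR adjusted p = 0.425) that came to -0.16 without flox replicate 5. Col6a3 read 7.28, 6.52, 10.4, 4.18 and 18.9 CPM in flox and 4.08, 5.17, 10.1, 4.56 and 8.27 CPM in HKO, so that flox replicate 5 alone lay above the HKO range by more than a few percent. Its log2 fold change was -0.56 ± 0.37 (SE, edgeR adjusted p = 0.499), or -0.13 without flox replicate 5. Col6a6, a chain that can take the place of Col6a3, ran from 0.122 to 0.655 CPM in flox and from 0.220 to 1.43 CPM in HKO, with the highest fold change of the family at 0.93 ± 0.55 on the log2 scale (SE, edgeR adjusted p = 0.432).

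Both multiplexins were tested, and Col18a1 carried most of the liver's collagen transcripts per length. Col15a1 stood at 1.11 CPM per kilobase in flox and 0.603 in HKO. Col18a1 (ENSMUSG00000001435, chromosome 10, 76888012 to 77002382, minus strand), which encodes the chain that yields endostatin, stood at 107 CPM per kilobase in flox and 89.1 in HKO, above every other collagen. RefSeq gives it windows at more than 1 start site, both on the minus strand of GRCm38.p6, at chr10:77166481-77166780 and chr10:77113656-77113955. They are shown because this gene sets the family's total, with CCAAT or ATTGG in capitals.
Col18a1 upstream start: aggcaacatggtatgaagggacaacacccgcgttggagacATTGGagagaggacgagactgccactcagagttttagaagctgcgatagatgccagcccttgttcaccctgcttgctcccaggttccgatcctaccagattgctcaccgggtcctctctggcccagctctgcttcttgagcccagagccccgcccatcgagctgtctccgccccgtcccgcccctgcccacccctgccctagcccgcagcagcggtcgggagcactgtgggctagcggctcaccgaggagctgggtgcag
Col18a1 downstream start: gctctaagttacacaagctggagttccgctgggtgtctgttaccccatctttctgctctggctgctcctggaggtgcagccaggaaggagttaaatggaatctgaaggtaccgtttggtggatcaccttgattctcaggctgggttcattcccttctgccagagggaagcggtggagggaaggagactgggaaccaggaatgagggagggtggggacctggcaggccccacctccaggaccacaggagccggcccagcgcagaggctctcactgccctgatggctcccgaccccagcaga
The upstream window held 1 such match and 3 to GGGCGG on either strand, and the downstream window 0 of both. The gene counts do not separate transcripts from these start sites.

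Col18a1 read 550.4, 910.5, 829, 764 and 711 CPM in flox and 632, 596, 708, 431 and 760.2 CPM in HKO. Flox replicate 1 lay below 4 HKO libraries, and the groups overlapped. The means were 753 ± 136 CPM in flox and 626 ± 126 CPM in HKO, a log2 fold change of -0.27 ± 0.18 (SE; 95% CI -0.66 to 0.12; edgeR adjusted p = 0.508). Leaving out flox replicate 5, which for this gene stood at 0.892 times the median of the other flox libraries, gave -0.28. Col18a1 had 66576 counts in flox and 50437 in HKO, the most of any collagen. Col15a1, the other multiplexin, which sits in the basement membranes of vessels, read 7.40, 9.38, 5.41, 3.32 and 9.72 CPM in flox. In HKO it read 5.25, 5.99, 1.39, 5.59 and 0.937 CPM, with HKO replicates 3 and 5 well below the other 3. Its log2 fold change was -0.88 ± 0.46 (SE; 95% CI -1.87 to 0.11; edgeR adjusted p = 0.363), or -0.73 without flox replicate 5.

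Among the 9 fibril-associated collagens, which coat fibrils and link them to other matrix, 4 were tested and 0 passed. Col14a1, which binds type I fibrils, read 22.8, 24.3, 16.7, 22.3 and 31.9 CPM in flox and 11.0, 13.0, 21.7, 15.9 and 19.1 CPM in HKO. Flox replicates 1, 2, 4 and 5 lay above every HKO library and flox replicate 3 lay within them. This was the collagen whose difference depended least on flox replicate 5 among those with an unadjusted p under 0.05: the means were 23.6 ± 5.49 and 16.1 ± 4.38 CPM, the log2 fold change was -0.55 ± 0.21 (SE; 95% CI -0.99 to -0.11; edgeR adjusted p = 0.174), and it was -0.41 ± 0.20 without that library (edgeR adjusted p = 0.407). Col12a1, its close relative, read 3.12, 4.08, 2.57, 1.66 and 4.94 CPM in flox and 2.40, 1.58, 1.26, 4.05 and 0.992 CPM in HKO (log2 fold change -0.68 ± 0.39, edgeR adjusted p = 0.426). Col16a1 ran from 0.551 to 2.47 CPM in flox and from 0.643 to 1.06 CPM in HKO (log2 fold change -0.86 ± 0.40, edgeR adjusted p = 0.292). Col20a1 ran from 0.365 to 2.95 CPM in flox and from 0.843 to 4.60 CPM in HKO (log2 fold change 0.63 ± 0.53, edgeR adjusted p = 0.608), and an overlapping gene held 136% as many counts. Of the 4 transmembrane collagens only Col13a1 was tested, and it ran from 0.705 to 2.26 CPM in flox and from 0.315 to 2.64 CPM in HKO (log2 fold change 0.02 ± 0.48, edgeR adjusted p = 0.992).

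**Figure D3:**
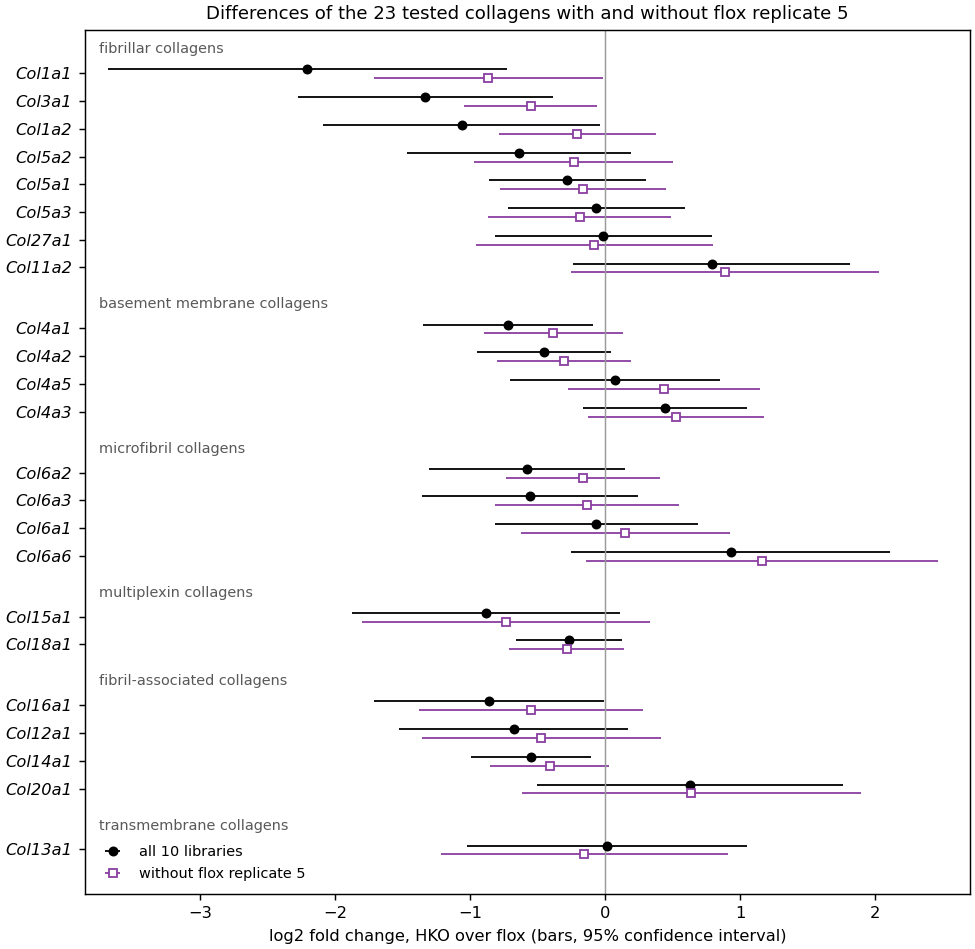
Log2 fold change of HKO over flox for the 23 tested collagens with 95% confidence intervals, from all 10 libraries (black circles) and without flox replicate 5 (open purple squares), grouped by class. Col1a1, Col1a2 and Col3a1 move furthest toward 0 without that library, from -2.20, -1.06 and -1.33 to -0.86, -0.20 and -0.55.

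The remaining 21 collagens did not have enough counts to be tested. Of these, 5 had no count in any library (Col6a4, Col9a1, Col11a1, Col19a1 and Col26a1), which allows a level of up to 0.151 to 0.198 CPM per library by counting error alone. The other 16 had between 1 and 68 counts summed over the 10 libraries, with at most 20 in a single library. They included 5 of the 6 short-chain, anchoring and other collagens and the cartilage chain Col2a1, which had 2 counts in all. Nothing about the genotype can be read from these genes at this depth.

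Summing the chains per length gave each class's level. Collagens together stood at 135 ± 22.8 CPM per kilobase in flox and 109 ± 22.0 in HKO, and the multiplexins made up 71.8% to 84.9% of that sum across libraries. The multiplexin sum was 108 ± 19.3 in flox and 89.7 ± 17.7 in HKO, and flox replicate 5 stood at 0.900 times the median of the other flox libraries. All other class sums were higher in flox replicate 5 than that median where the class had more than 1 tested gene. The ratio was 1.87 for the fibrillar class (14.4 ± 5.59 in flox and 10.8 ± 3.60 in HKO). It was 1.98 for the basement membrane class (4.74 ± 1.99 and 3.20 ± 0.419), 2.59 for the microfibril class (2.59 ± 1.31 and 2.20 ± 0.621) and 1.49 for the fibril-associated class (4.14 ± 0.882 and 3.05 ± 0.705). Without flox replicate 5 the direction of the microfibril sum turned, with a flox mean of 2.10 ± 0.836 (n = 4), and its log2 ratio of HKO over flox went from -0.24 to 0.06.

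The sum of Col1a1, Col1a2 and Col3a1 stood furthest apart in that library. It was 2.57, 3.19, 2.82, 1.60 and 14.4 CPM per kilobase in flox and 1.58, 1.60, 2.35, 1.05 and 2.12 in HKO. These genes gave 10.1% of the collagen sum in flox replicate 5 and 1.25% to 2.63% in the other 9 libraries. No class sum separated the groups, with or without flox replicate 5. The lengths are those of the deposited table, which for Col1a2 lists 12426 bases where the longest coding transcript in GENCODE M21 has 5348, so orders of level between genes depend on the annotation.

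**Figure D4:**
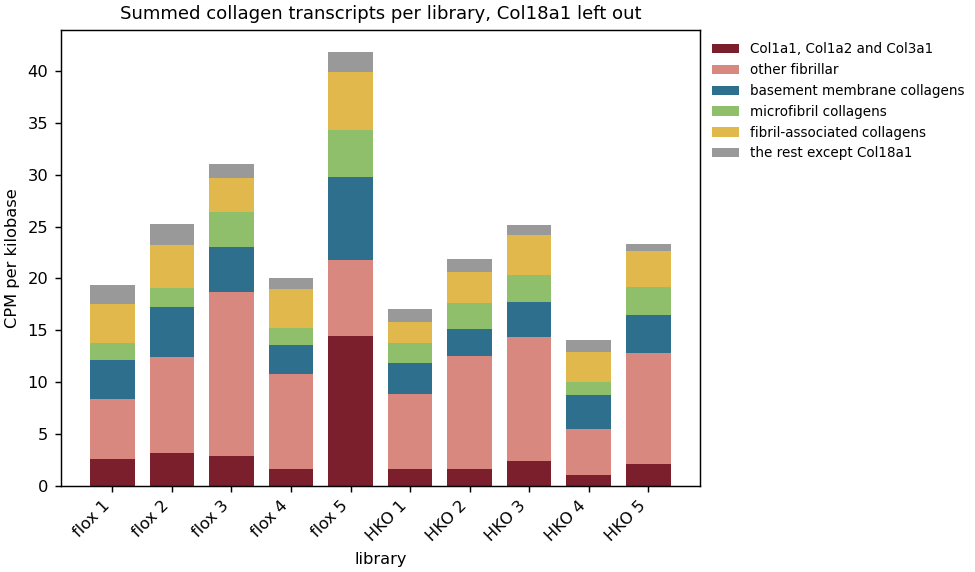
Summed collagen transcripts per library in CPM per kilobase, stacked by class, with Col18a1 left out because it exceeds the rest together. Flox replicate 5 reaches 41.9 against 14.04 to 31.1 in the other 9 libraries, and its Col1a1, Col1a2 and Col3a1 segment is 14.4.

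Markers of the cells that can make collagen, and of other liver cells, were read beside these levels. Calls in these lists stand beside 3.99% of all genes tested. The stellate cell list, 11 of 11 tested, had 0 calls and a median change of -0.08 on the log2 scale, with a summed level of 145 to 211 CPM in flox and 119 to 243 CPM in HKO. The portal fibroblast list, 6 of 6 tested, also had 0 calls, with sums of 19.9 to 26.8 and 16.4 to 28.4 CPM. The most abundant stellate marker, Ecm1, had a log2 fold change of 0.18 ± 0.25 and the most abundant portal fibroblast marker, Gas1, 0.15 ± 0.23. For neither list did the groups' sums separate.

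Of the activated stellate cell and myofibroblast list, 4 of 6 genes were tested and 1 fell, beside 3.99% of all genes called in either direction. Of the 4 tested genes, 2 had a fold change below 0. The median of the 4 was -0.45 on the log2 scale, and -0.51 when flox replicate 5 was left out. Its summed level was 35.5 to 64.1 CPM in flox and 15.0 to 30.7 CPM in HKO, so these sums did separate the groups. Vim was the most abundant gene of the list in flox, and with Vim taken out the sums of the groups overlapped. No test was made of the sum. The gene that fell was Vim, which encodes the filament protein vimentin and is also made by macrophages and endothelium. It read 25.0, 24.5, 24.6, 22.6 and 47.0 CPM in flox and 13.5, 8.76, 17.6, 8.48 and 12.2 CPM in HKO, so the groups did not overlap. Its log2 fold change was -1.25 ± 0.24 (SE, edgeR adjusted p = 0.0148) and -0.99 without flox replicate 5 (edgeR adjusted p = 0.0245). Acta2, the smooth muscle actin that defines myofibroblasts, chosen here after its values were seen, was at 2.48 ± 0.586 CPM in flox and 2.48 ± 1.58 CPM in HKO, with 1.96 CPM in flox replicate 5.

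Some lists of other cell types also stood apart in flox replicate 5, and the macrophage list fell in HKO. The summed cholangiocyte list was 165 CPM in flox replicate 5, 3.20 times the median of the other flox libraries, and 41.8 to 80.2 CPM in HKO, with Spp1 at 145 CPM in that library. The summed macrophage list was 592 CPM in flox replicate 5, the highest of 257 to 592 CPM in flox, and 103 to 207 CPM in HKO. The summed hepatocyte list was 77719 CPM in flox replicate 5, 0.623 times the median of the other flox libraries, and 103261 to 141033 CPM in the other 9 libraries. All 8 hepatocyte markers were tested, with 0 calls and a median log2 fold change of 0.13. In the sinusoidal endothelial list, 9 of 9 were tested and all 9 had a fold change below 0, beside 49% of all genes. The median was -0.44 on the log2 scale, or -0.37 without flox replicate 5. Of the 9, 1 gene fell, beside 3.99% of all genes called. It was the cadherin gene Cdh5, at 13.8 ± 2.90 CPM in flox and 7.58 ± 1.72 CPM in HKO (edgeR adjusted p = 0.0261). Cdh5 missed the threshold without flox replicate 5 (edgeR adjusted p = 0.0722), flox replicate 4 (0.0569) or HKO replicates 1, 2 or 4 (0.0665, 0.0659 and 0.0685). The summed endothelial list ran from 144 to 223 CPM in flox and from 101 to 225 CPM in HKO. Of 5 mesothelial markers 1 was tested, Gpm6a, and it did not pass (log2 fold change -0.29 ± 0.32). No marker in these lists was at 0 in every library. The part of these cell types in the collagen levels was not tested.

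The genes that fold, trim, cross-link, bind, break down and sense collagen were read from the same fit, 81 genes of which 63 were tested. In HKO 1 of these fell and 0 rose, and 7 of 63 had an unadjusted edgeR p under 0.05. These shares, 1.59% and 11.1%, were below the 3.99% and 16.9% of all genes. The 16 tested folding and modification genes, which hydroxylate and chaperone the chains in the endoplasmic reticulum, had 0 calls and a median log2 fold change of -0.02. The most abundant, P4hb, a subunit of prolyl 4-hydroxylase, was at -0.08 ± 0.13. The 9 tested trimming and cross-linking genes had 0 calls and a median of -0.37. Among them Bmp1, the protease that removes the end of procollagen I, was at 164 ± 31.5 CPM in flox and 168 ± 25.5 CPM in HKO.

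Proteins that bind fibrils or share the basement membrane also had no call. The median over the 10 tested fibril-binding genes was -0.23 on the log2 scale, and Fn1, which encodes fibronectin, was at 1341 ± 278 CPM in flox and 1106 ± 147 CPM in HKO. The 15 tested basement membrane partners had a median of -0.20, or -0.03 without flox replicate 5, and Agrn, which encodes agrin, was at -0.03 ± 0.19. Nid1, chosen here after its values were seen, links laminin to type IV collagen. It read 14.3, 8.53, 6.22, 7.56 and 31.7 CPM in flox and 5.90, 6.05, 5.95, 5.14 and 6.67 CPM in HKO (log2 fold change -1.20 ± 0.38, edgeR adjusted p = 0.102), and it passed in DESeq2, with no filter on low counts and without flox replicate 3. Flox replicate 5 was again highest, and 4 of the 5 flox libraries were above every HKO library. Lama3, a laminin chain also chosen after its values were seen, went the other way, at 1.65 ± 1.31 CPM in flox and 3.92 ± 0.654 CPM in HKO (log2 fold change 1.25 ± 0.42, edgeR adjusted p = 0.124). It passed in DESeq2 and without flox replicate 4 (edgeR adjusted p = 0.0108), higher in HKO both times.

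None of the 6 tested collagen breakdown genes was called, and their median was -0.33 on the log2 scale, or -0.10 without flox replicate 5. Mmp14, a membrane-bound collagenase, was at 47.0 ± 14.4 CPM in flox and 38.1 ± 4.97 CPM in HKO, with 70.2 CPM in flox replicate 5. Of the 7 tested receptors, 1 fell in HKO. It was Lair1, an inhibitory collagen receptor of leukocytes, which read 3.85, 3.29, 3.49, 5.21 and 8.76 CPM in flox and 1.23, 1.39, 3.11, 1.99 and 0.827 CPM in HKO, without overlap. Its log2 fold change was -1.53 ± 0.38 (SE; 95% CI -2.34 to -0.73; edgeR adjusted p = 0.0350), and -1.21 without flox replicate 5, where it missed the threshold (edgeR adjusted p = 0.0951). It also missed it without flox replicate 4 (0.0584) or HKO replicates 1, 2, 4 or 5 (0.0901, 0.0834, 0.0685 and 0.0767). Lair1 is made by macrophages among other leukocytes, and the macrophage markers fell in the same libraries. The part of macrophage number in its level was not tested.

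**Figure D5:**
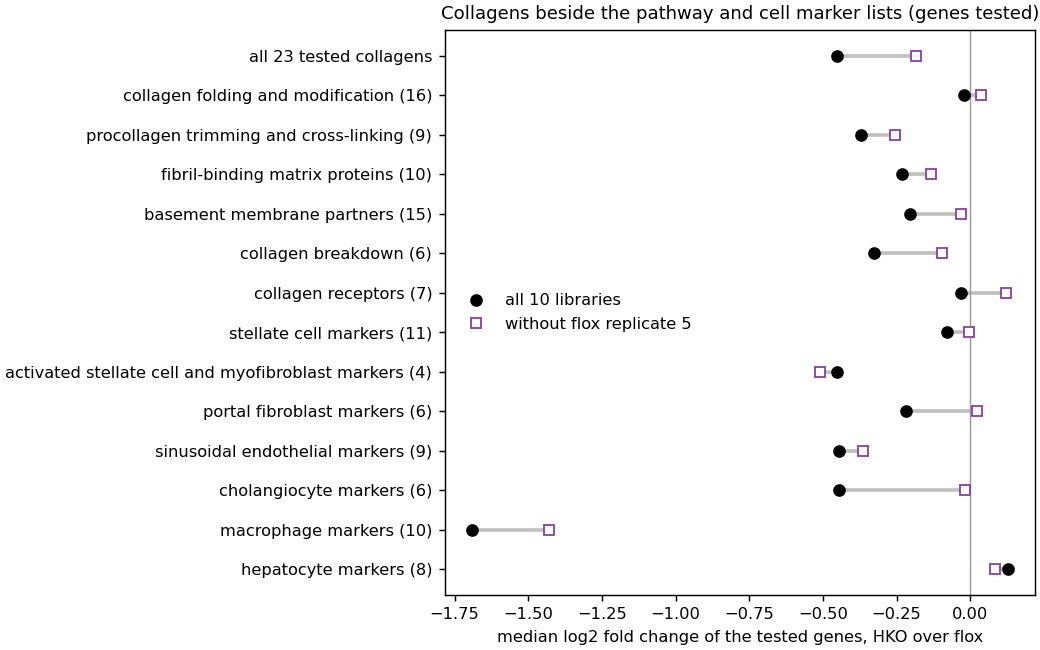
Median log2 fold change of HKO over flox for the 23 tested collagens and for each pathway and cell marker list with more than 1 tested gene (number of genes tested in parentheses), from all 10 libraries (black circles) and without flox replicate 5 (open purple squares). The collagen median moves from -0.45 to -0.19 and the macrophage median from -1.69 to -1.43.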

How the data were processed

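Per the labels' protocols, 10 liver libraries were made from total RNA with the VAHTS Universal V6 kit. The authors deposited whole-number counts of reads per gene, not scaled, together with a gene length in bases. Build mm10 and the tool DESeq2 are named in the submitters' processing notes. The aligner, counter, annotation, strand setting and treatment of multi-mapping reads were not given in the sources used here. Gene coordinates are those of the deposited table, and 0 of 44 collagens had the same start and end in RefSeq GRCm38.p6. Col4a1, on the minus strand, ends at 11362826 in the table, while its GRCm38.p6 start site is 11312826. Col4a2, on the plus strand, starts at 11362805 and 11312805. Table positions and window positions are thus on different coordinates and cannot be laid over each other. Which build the table used is uncertain. Promoter windows come from RefSeq GRCm38.p6, which had one for 35 of the 44.

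The comparison of HKO with flox used edgeR 4.0.16 in R 4.3.3 (quasi-likelihood F-test, two-sided), with TMM scaling, filterByExpr by group and Benjamini-Hochberg adjustment over the 14068 genes tested, at a threshold of 0.05. Standard errors were calculated back from F, and 95% intervals from them cover the spread between libraries, while limits from 3 counts cover counting error only. Alternatives were DESeq2 1.42.0, library totals, other filters, robust dispersion, a replicate block and each library left out. The test was checked on simulated counts, where it called 56.25% of 2-fold and 89.6% of 4-fold changes, with 4 false among 144 calls. A 2-fold difference could thus be missed at this depth and spread. The labels do not say that libraries came from separate animals, so p-values measure the spread between these samples. Libraries of a group always differed by more than sampling noise (smallest chi-square per degree of freedom 24.6).

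The collagens and lists were chosen with earlier results of these data known. The rule for naming was every tested collagen, up to 4 called genes per list or else its most abundant gene, and Acss2. Of the tested collagens, 4 overlapped another gene with at least 10% as many counts, and 0 of 23 had a near-identical copy.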

Additional observations from a re-analysis of the deposited data

Results flagged for a closer look

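In 58 groups of 5 libraries, each a tested collagen or the summed level of a collagen class in flox or HKO, a library was set apart where its gap to the nearest library, divided by the group's range, passed Dixon's 95% critical value. In all, 6 groups did. For independent groups with a normal spread, chance alone would do so in about 1 in 20. The groups here share libraries and some are sums of the same genes, so that rate need not apply. Flox replicate 5 was the high library for Col1a1 (gap 0.867 of the range), Col1a2 (0.868) and Col3a1 (0.889), which share that library. Flox replicate 3 was the high library for Col27a1 (0.792). HKO replicate 4 was the low library for Col27a1 (0.779) and Col5a2 (0.780). HKO replicate 4 was also the lowest of all 10 libraries in 9 of the 23 tested collagens, beside 13.0% of all genes tested.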

How the results depend on the processing

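Of 365 alternative values for the tested collagens, 339 kept their direction and their side of the threshold, 23 turned in sign and 3 passed. With no filter on low counts 2 collagens passed (Col1a1 and Col3a1), and leaving out 1 library at a time gave 0 to 1, the 1 being Col1a1 without flox replicate 4. Every other alternative gave 0. The median log2 fold change of the tested collagens ran from -0.54 to -0.19 over the fits without 1 library, lowest in size without flox replicate 5. Over all genes DESeq2 called 1021 against 561, and leaving out 1 library gave 289 to 673. Collagen pathway calls were 3 in DESeq2 (Lair1 and Nid1 lower, Lama3 higher in HKO), 3 with no filter (Lair1, Mmp12 and Nid1, all lower), 0 with the replicate block, and 0 to 2 without 1 library.

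The replicate block called 0 collagens and 448 genes in all. Same-numbered libraries had correlations of -0.11, -0.07, 0.27, 0.04 and -0.11, and 0 of 5 correlated best with its own number. No pairing by number was seen, though a weak pairing could be missed with 5 libraries per group. Lair1 had an edgeR adjusted p of 0.0725 with the block.

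The sign of the log2 fold change turned in some setting for 10 genes, none of which passed in any. With library totals alone the log2 fold change was -0.062 for Col4a5, -0.077 for Col13a1 and -0.072 for Bmp1. With the block it was 0.10 for Col27a1 and -0.16 for Col13a1. Col27a1 was at 0.0015 in DESeq2 and 0.0030 with no filter. Over the fits without 1 library the log2 fold change crossed 0 for Col13a1 (-0.31 to 0.27), Col27a1 (-0.19 to 0.50), Col4a5 (-0.058 to 0.44), Col5a3 (-0.22 to 0.15), Col6a1 (-0.22 to 0.15), Agrn (-0.14 to 0.088), Bmp1 (-0.049 to 0.14), Ecm1 (-0.066 to 0.33), Gas1 (-0.015 to 0.26) and Spp1 (-0.58 to 0.18). The cause was not tested. Of 96 alternative values for class sums, among them lengths of the longest coding transcript, an alternative chosen after seeing the data, 0 moved by more than the spread between libraries, although the microfibril sum turned in sign without flox replicate 5 (log2 ratio 0.062). Depth limits the 21 untested collagens, with at most 68 counts each.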
